A study of Mus musculus with 8 samples.

Results

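The genes described here are the integrins and the laminins of the mouse, 35 of the 21951 protein-coding genes in the annotation, of which 25 encode integrin subunits and 10 encode laminin chains. They were chosen by name, and the locus of each was its gene body in GENCODE M21 on build mm10 plus 20 kb on each side. The peaks in these loci were compared between cells given wild-type Nanog and cells given a Nanog fusion. Some loci share ground: the windows of Itga1 and Itga2 overlap and 3 peaks were counted at both genes, while those of Itgam and Itgax overlap without a shared peak. In the family totals each peak was counted once.

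The cells were MEFs, which are mouse embryonic fibroblasts, sampled at day 5 of reprogramming. Per the methods they came from embryos of OG2 males, which carry an Oct4-GFP reporter, crossed to 129 females, were infected with retroviruses and were kept in iCD3 medium. All of them received Oct4. The arm labelled Nanog+Oct4 received wild-type Nanog and is called NanogWT, and the arm labelled NanogN70+Oct4 is called NanogBiD, since the study describes an N-terminal fusion of the BRG1-interacting domain of SS18 to NANOG; that these are the same construct was read from the study's text. CUT&Tag, a method that tethers a transposase to antibody-bound chromatin, was done in each arm for the FLAG tag on NANOG, for BRG1, the ATPase of the BAF remodelling complex, and for H3K27ac and H3K4me1, marks of active and of primed or active regulatory DNA, giving 8 libraries. In such bulk samples a target bound in fewer cells and a target bound less in each cell cannot be told apart.

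Integrins are receptors made of an alpha and a beta chain that join the matrix outside the cell to the actin skeleton inside. Laminins are trimers of an alpha, a beta and a gamma chain and are main parts of basement membranes. Fibroblasts are rich in receptors for fibronectin and collagen, whereas pluripotent cells are known for their laminin receptors and for laminins of the early embryo.

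There was 1 deposited list for each target and arm, called on merged replicates, so no replicate spread exists and no test was made. The lists held 30859 to 74782 peaks and the sequencing depth behind them is unknown. Summit heights, the number of tags piled up at a peak's highest point, started at 6 to 8 tags in the lists and had medians of 13.0 to 16. Many summits named below lie near that floor, where a peak found in 1 arm may have just missed the limit in the other. H3K27ac promoter peaks were found for 9 of 10 fibroblast markers in either arm, the exception being Prrx1. Over all protein-coding genes the share with such a peak was 56.0% in NanogWT and 58.8% in NanogBiD. Such peaks were found for 1 leukocyte marker of 8 in NanogWT and 2 in NanogBiD, for 0 and 1 of 6 epithelial markers, and for 1 and 3 of 5 endothelial markers, and the part of other cells in the results was not tested.

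The sequences of 6 windows are shown here as examples, each reaching 100 bp to either side of a FLAG summit, on the plus strand of mm10. The first 4 are the highest-ranked regions in each family that had both FLAG and BRG1 in 1 arm only, ranked by the lower of their FLAG and BRG1 heights, and the last 2 are those with the largest FLAG increase in each family, whose sequences were added after their values were seen. Capitals mark matches to 5 short motifs, searched on both strands: AP-1 (TGAGTCA or TGACTCA), TEAD (GGAATG), the OCT octamer (ATGCAAAT), SOX (ACAAAAG or ACAAAGG, also ACAATAG or ACAATGG) and RUNX (TGTGGTT).
Itga9, NanogBiD only, chr9:118908235-118908435: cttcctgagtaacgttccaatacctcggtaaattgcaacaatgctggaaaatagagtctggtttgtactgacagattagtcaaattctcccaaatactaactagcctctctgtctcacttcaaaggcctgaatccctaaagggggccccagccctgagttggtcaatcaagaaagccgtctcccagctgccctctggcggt
Itga5, NanogWT only, chr15:103365614-103365814: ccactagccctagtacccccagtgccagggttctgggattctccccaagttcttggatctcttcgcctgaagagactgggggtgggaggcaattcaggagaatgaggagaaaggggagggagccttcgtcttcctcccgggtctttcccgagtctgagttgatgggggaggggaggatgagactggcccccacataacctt
Lama4, NanogBiD only, chr10:38999489-38999689: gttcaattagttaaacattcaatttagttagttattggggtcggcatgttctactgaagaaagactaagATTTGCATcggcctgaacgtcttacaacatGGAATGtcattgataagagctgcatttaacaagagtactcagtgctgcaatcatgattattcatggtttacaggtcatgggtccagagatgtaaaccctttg
Lama4, NanogWT only, chr10:39049399-39049599: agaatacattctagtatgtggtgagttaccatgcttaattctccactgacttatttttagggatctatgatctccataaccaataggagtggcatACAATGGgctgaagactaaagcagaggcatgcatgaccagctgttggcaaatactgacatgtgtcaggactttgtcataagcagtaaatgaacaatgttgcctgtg
Itga6, FLAG higher in NanogBiD, chr2:71742522-71742722: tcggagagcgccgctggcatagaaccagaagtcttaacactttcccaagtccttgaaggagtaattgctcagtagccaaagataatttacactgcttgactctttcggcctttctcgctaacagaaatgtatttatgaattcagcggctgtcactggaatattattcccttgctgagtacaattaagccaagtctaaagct
Lamb3, FLAG higher in NanogBiD, chr1:193216066-193216266: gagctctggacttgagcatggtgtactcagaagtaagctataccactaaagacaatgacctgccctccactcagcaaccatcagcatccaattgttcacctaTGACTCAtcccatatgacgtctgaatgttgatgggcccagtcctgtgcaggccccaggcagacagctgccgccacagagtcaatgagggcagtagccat
The Lama4 window found in NanogBiD held an octamer, written ATTTGCAT on this strand and starting at base 70, and a TEAD match starting at base 100. The Lama4 window found in NanogWT held a SOX match at base 96, and the Lamb3 window held an AP-1 match at base 103. No match was present in the Itga9, Itga5 and Itga6 windows.

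Integrin loci carried more BRG1 peaks and fewer H3K4me1 peaks in NanogBiD, with FLAG peaks somewhat more numerous and H3K27ac peaks as many. There were 118 FLAG peaks in NanogWT against 137 in NanogBiD, which gives a ratio of 1.16 with an exact binomial 95% interval of 0.901 to 1.5. BRG1 peaks numbered 74 and 108, a ratio of 1.46 (1.08 to 1.99). There were 97 and 96 peaks of H3K27ac, while H3K4me1 went from 165 to 118, a ratio of 0.715 (0.560 to 0.911). These intervals, like all those below, cover counting error only.

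Laminin loci followed the same order of targets. FLAG peaks went from 67 to 84, which gives 1.25 (0.899 to 1.76), and BRG1 peaks from 45 to 64, a ratio of 1.42 (0.956 to 2.13). H3K27ac had 44 and 45 peaks, and H3K4me1 went from 75 to 56, a ratio of 0.747 (0.519 to 1.07). Over the loci of all protein-coding genes FLAG had a ratio of 1.24, BRG1 of 1.56, H3K27ac of 1.16 and H3K4me1 of 0.798, all inside the intervals of both families. The BRG1 and H3K4me1 ratios of the integrins kept their direction with scores of at least 100 (1.74 and 0.855), though the H3K4me1 interval then included 1 (0.594 to 1.23). They also kept it with heights of at least 15 tags (1.63 and 0.538). With lists of equal size they turned: among the 20000 highest-scoring peaks of each list they were 0.938 (48 and 45 peaks) and 1.16 (51 and 59 peaks). Both of these intervals included 1. In the same lists the laminin ratios were 0.95 for FLAG (20 and 19 peaks), 0.640 for BRG1 (25 and 16 peaks), 0.842 for H3K27ac (19 and 16 peaks) and 0.955 for H3K4me1 (22 and 21 peaks).

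**Figure D1:**
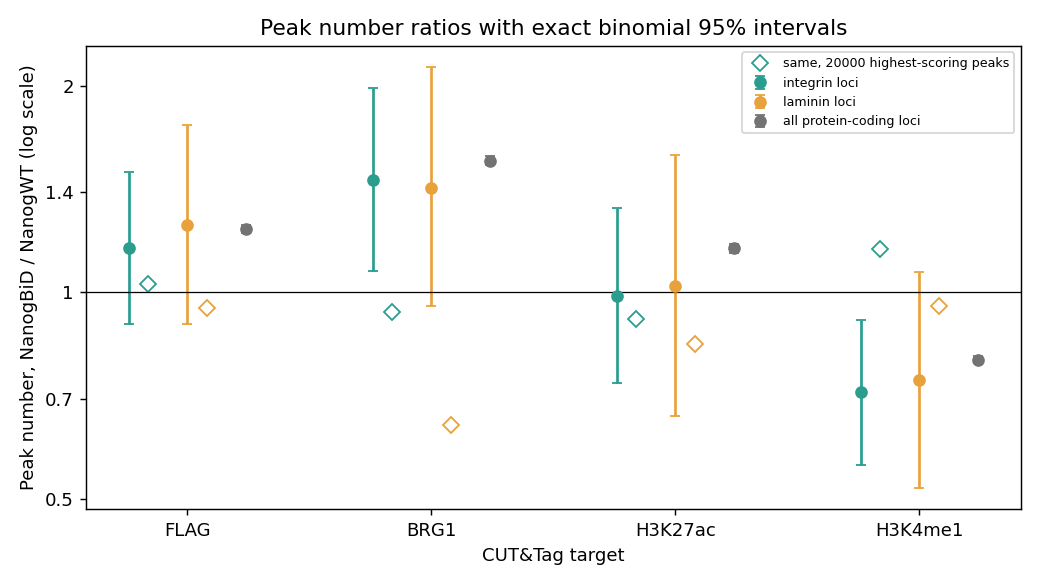
Number of peaks in NanogBiD divided by that in NanogWT (log scale) for each CUT&Tag target, at integrin, laminin and all protein-coding loci. Filled points with bars are whole lists with exact binomial 95% intervals and open diamonds are the top 20000 peaks of each list by score; the integrin BRG1 ratio is 1.46 over whole lists and 0.938 among the highest-scoring peaks.

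Gene by gene, more FLAG peaks in NanogBiD were found at 13 of the 23 integrin loci with a FLAG peak and fewer at 6, against 50.2% and 17.6% of all protein-coding genes with a peak. For BRG1 the numbers were 14 and 4 of 22, against 53.2% and 12.7%. H3K27ac showed 8 integrin loci with more and 10 with fewer of 23, against 37.4% and 17.4%. H3K4me1 showed 3 with more and 17 with fewer of 24, against 19.7% and 51.6%. The integrins thus lay near the background for FLAG and BRG1, and the share of loci with fewer peaks exceeded it for both histone marks, in small numbers. The 10 laminin loci divided into 7 with more and 3 with fewer FLAG peaks, 6 and 2 for BRG1, 4 and 2 for H3K27ac, and 2 and 7 for H3K4me1. These genes are long, with a median of 56.9 kb for integrins and 119.6 kb for laminins against 17.4 kb for all protein-coding genes, and a longer locus holds more peaks; the shares over all genes were not matched for length.

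**Figure D2:**
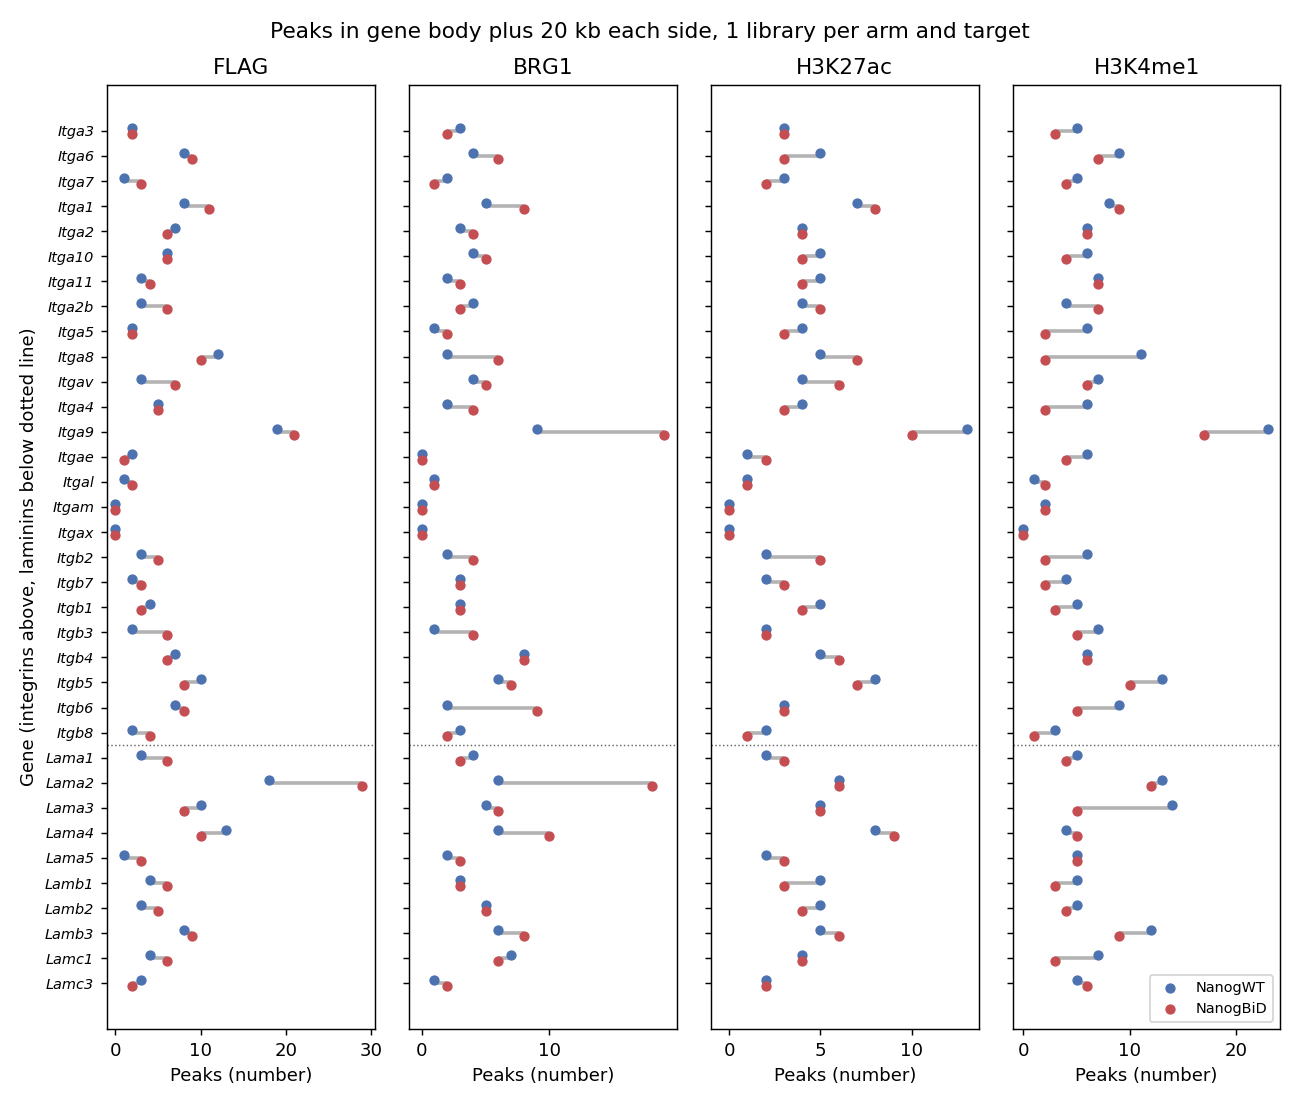
Number of peaks at each of the 35 loci (gene body plus 20 kb on each side) for FLAG, BRG1, H3K27ac and H3K4me1, with NanogWT in blue and NanogBiD in red and 1 library for each point. Lama2 and Itga9 stand out with 18 and 19 BRG1 peaks in NanogBiD against 6 and 9 in NanogWT, and H3K4me1 points lie mostly further left in NanogBiD.

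Among the alpha chains that pair to make laminin receptors, Itga3, Itga6 and Itga7, FLAG peaks numbered 11 in NanogWT and 14 in NanogBiD and BRG1 peaks 9 in each arm. Itga6, whose product pairs with beta 1 or beta 4 and is a surface marker of pluripotent cells, had 8 FLAG peaks in NanogWT and 9 in NanogBiD and 4 and 6 BRG1 peaks. Its H3K27ac peaks numbered 5 and 3. Its 11 merged regions had FLAG in both arms at 6, in NanogBiD only at 3 and in NanogWT only at 2, and the regions of 1 arm only had FLAG summits of 10 to 18 tags. At chr2:71742022-71743988, centred at -44.3 kb from the nearest protein-coding start site, the FLAG summit was 13 tags in NanogWT and 35 in NanogBiD, a log2 difference of 1.43 and the largest increase among the 92 shared FLAG regions of the integrins. A BRG1 peak of 21 tags was present there in NanogBiD only. The next region, chr2:71739266-71741113, named after its values were seen, had FLAG summits of 18 and 40 tags and a BRG1 peak of 19 tags in NanogBiD only. Neither region held a peak of H3K27ac or H3K4me1 in either arm, and the Itga6 promoter itself had FLAG summits of 12 and 10 tags and H3K27ac summits of 15 and 17. Both regions lie just outside the annotated gene body, which begins well before the protein-coding start sites.

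Itga3, whose product pairs with beta 1 as a receptor for laminins of epithelia, was among the 3 integrins with the smallest summed difference over FLAG, BRG1 and H3K27ac. It had 2 FLAG peaks in each arm, 3 and 2 BRG1 peaks, 3 H3K27ac peaks in each and 5 and 3 H3K4me1 peaks. Its promoter was nonetheless a place of difference, with a FLAG peak of 14 tags and a BRG1 peak of 11 tags in NanogBiD only, over H3K27ac summits of 10 and 14 tags.

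All 4 collagen-binding alpha chains, Itga1, Itga2, Itga10 and Itga11, had more BRG1 peaks in NanogBiD, 14 against 19 in sum, where 53.2% of all genes with such a peak did. The extra BRG1 peak of Itga2, at chr13:114945419-114946344, also lies in the Itga1 window. It was counted at both genes, so their increases are not separate. Itga1 had 8 FLAG peaks in NanogWT and 11 in NanogBiD, 5 and 8 BRG1 peaks, 7 and 8 H3K27ac peaks and 8 and 9 H3K4me1 peaks, making it 1 of 3 integrins in which H3K4me1 peaks were more numerous in NanogBiD. An intronic region of Itga1 at chr13:114963961-114964607 held all of its signal in NanogBiD, with 21 tags of FLAG, 12 of BRG1, 13 of H3K27ac and 11 of H3K4me1. Itga11, a collagen receptor of fibroblasts, had 3 and 4 FLAG peaks, 2 and 3 BRG1 peaks, 5 and 4 H3K27ac peaks and 7 H3K4me1 peaks in each arm. Its promoter FLAG peak of 11 tags was found in NanogWT only, while a peak at -4.40 kb from the start site, of 24 FLAG tags and 12 BRG1 tags, was found in NanogBiD only. These regions of Itga1 and Itga11 were picked after their values were seen.

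The alpha chains that recognise the RGD sequence of fibronectin and vitronectin, Itga2b, Itga5, Itga8 and Itgav, had 20 FLAG peaks in NanogWT and 25 in NanogBiD, 11 and 16 BRG1 peaks and 28 and 17 H3K4me1 peaks. Itgav, which pairs with several beta chains, had 3 and 7 FLAG peaks, 4 and 5 BRG1 peaks, 4 and 6 H3K27ac peaks and 7 and 6 H3K4me1 peaks. Its promoter was occupied in both arms, with FLAG summits of 26 and 29 tags, BRG1 summits of 25 and 27 and H3K27ac summits of 26 and 38. Itga5, which forms the classical fibronectin receptor with beta 1, had 2 FLAG peaks in each arm, 1 and 2 BRG1 peaks, 4 and 3 H3K27ac peaks and 6 and 2 H3K4me1 peaks. The promoter region chr15:103365128-103367102 had FLAG at 13 tags and BRG1 at 14 tags in NanogWT only, and H3K27ac at 28 tags in NanogWT and 30 in NanogBiD. The neighbouring intronic region, 2.87 kb into the gene, kept FLAG in both arms, at 21 and 24 tags, and had BRG1 at 13 tags in NanogBiD only. H3K27ac was listed there in NanogBiD only, at the same 30 tags as over the promoter region, so a single peak may reach both. Thus at Itga5 the called peaks of NANOG and BRG1 differed over a promoter that was acetylated in both arms.

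Itga4 and Itga9, whose products bind fibronectin splice forms, VCAM1 and tenascins, had 24 and 26 FLAG peaks, and their BRG1 peaks numbered 11 in NanogWT and 23 in NanogBiD. Almost all of this came from Itga9, the integrin with the largest summed difference, where BRG1 peaks numbered 9 and 19. Itga9 also had 19 and 21 FLAG peaks, 13 and 10 of H3K27ac and 23 and 17 of H3K4me1. Of its 28 merged FLAG or BRG1 regions, 13 had BRG1 in NanogBiD only, and FLAG was present there in NanogBiD in 12. The BRG1 summits of these 13 were 8 to 17 tags high. The region with the highest lower value was chr9:118907780-118908742, downstream of the gene, with 17 tags of both FLAG and BRG1 in NanogBiD only, H3K27ac of 12 tags in NanogWT only and H3K4me1 of 19 tags in NanogBiD only. At an intronic region, chr9:118706025-118707269, FLAG was 12 tags in NanogWT and 29 in NanogBiD (log2 difference 1.27), with BRG1 of 15 tags in NanogBiD only and H3K27ac of 16 and 14 tags. A second intronic region, chr9:118729761-118731477, had 24 tags of FLAG and 16 of BRG1 in NanogBiD only and H3K4me1 of 11 tags in NanogWT only. Regions in the other direction also existed at Itga9, with FLAG and BRG1 in NanogWT only at chr9:118910468-118911700 (13 and 11 tags) and chr9:118743114-118744097 (10 tags each). Without Itga9 the integrin BRG1 ratio was 1.37 (0.983 to 1.92).

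The beta chains other than those of leukocytes, Itgb1, Itgb3, Itgb4, Itgb5, Itgb6 and Itgb8, had 32 and 35 FLAG peaks, 23 and 33 BRG1 peaks, 25 and 23 H3K27ac peaks and 43 and 30 H3K4me1 peaks. Itgb6, an epithelial chain that pairs with alpha V and activates TGF-beta, had 7 and 8 FLAG peaks but 2 and 9 BRG1 peaks. It had 3 H3K27ac peaks in each arm and 9 and 5 H3K4me1 peaks. Its intronic region chr2:60635973-60637635 had 25 tags of FLAG and 14 of BRG1 in NanogBiD only and neither histone mark in either arm, while the largest FLAG decrease of the integrins lay upstream of it at chr2:60738909-60740180, with 22 tags in NanogWT and 7 in NanogBiD (log2 difference -1.65). BRG1 at that upstream region was nevertheless called in NanogBiD only, at 11 tags, and H3K27ac was 21 and 12 tags.

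Itgb1, the partner of most alpha chains in fibroblasts, was at the other end, with 4 FLAG peaks in NanogWT and 3 in NanogBiD, 3 BRG1 peaks in each, 5 and 4 H3K27ac peaks and 5 and 3 H3K4me1 peaks. Its promoter was marked in both arms, with FLAG summits of 19 and 27 tags, BRG1 summits of 28 and 21 and H3K27ac summits of 50 and 51. Itgb5, a vitronectin receptor chain, had 10 and 8 FLAG peaks, 6 and 7 BRG1 peaks, 8 and 7 H3K27ac peaks and 13 and 10 H3K4me1 peaks. Itgb3, the chain of the platelet and vitronectin receptors, was outside the naming rule and was picked after its values were seen. It tied with Itga1, Itgav and Itgb2 in summed difference, with 2 and 6 FLAG peaks and 1 and 4 BRG1 peaks but 2 H3K27ac peaks in each arm.

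The leukocyte chains Itgae, Itgal, Itgam, Itgax, Itgb2 and Itgb7 were the least occupied group, with 8 FLAG peaks in NanogWT and 11 in NanogBiD over 6 genes. Itgam and Itgax, chains of the complement receptors, had 0 peaks of FLAG, BRG1 and H3K27ac in either arm, and Itgam had 2 H3K4me1 peaks in each while Itgax had 0. Itgal, the alpha chain of LFA-1, had 1 and 2 FLAG peaks, 1 BRG1 and 1 H3K27ac peak in each arm, and 1 and 2 H3K4me1 peaks. Itgb2, their common beta chain, had 3 and 5 FLAG peaks, 2 and 4 BRG1 peaks, 2 and 5 H3K27ac peaks and 6 and 2 H3K4me1 peaks. Of the 5 merged FLAG or BRG1 regions in its locus, 3 lay at start sites of other genes, so not all of this signal need concern Itgb2. At its own promoter FLAG (10 tags) and H3K27ac (13 tags) were found in NanogBiD only, BRG1 was 10 and 9 tags, and H3K4me1 (10 tags) was found in NanogWT only.

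Among the laminin alpha chains FLAG peaks numbered 45 in NanogWT and 56 in NanogBiD and BRG1 peaks 23 and 40, and most of the difference lay in Lama2. Lama2, the alpha chain of the laminins of muscle and nerve, is the longest of the 35 genes, at 639.7 kb. It had 18 FLAG peaks in NanogWT and 29 in NanogBiD and 6 and 18 BRG1 peaks. H3K27ac gave 6 peaks in each arm and H3K4me1 gave 13 and 12. Of its 31 merged regions 30 were intronic, and 13 had BRG1 in NanogBiD only, all with FLAG in NanogBiD. Their BRG1 summits were 7 to 19 tags high, and 10 of the 13 held no H3K27ac or H3K4me1 peak in either arm. H3K27ac in NanogBiD was found in 1 of the 13, which is 7.69% (Wilson 95% interval 1.37 to 33.3%), against 40.1% of the 28776 BRG1 regions of the genome found in NanogBiD only, a comparison picked after the values were seen. Over the whole families the same share was nearer to the genome, at 18 of 50 integrin regions, 36.0% (24.1 to 49.9%), and 9 of 29 laminin regions, 31.0% (17.3 to 49.2%). Lama2 also held FLAG height changes in either direction that were next after the largest of the laminins, the rise in a tie with regions of Lama4 and Lamc3. At chr10:27435552-27436511 FLAG went from 11 to 22 tags and NanogBiD alone had BRG1, at 11 tags, while at chr10:27041793-27042959 FLAG was 20 and 13 tags (log2 difference -0.62) with BRG1 of 9 tags in NanogBiD only.

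The other alpha chains of the laminins differed less in FLAG and BRG1. Lama1, the alpha chain of laminin in the early embryo, had 3 and 6 FLAG peaks, 4 and 3 BRG1 peaks, 2 and 3 H3K27ac peaks and 5 and 4 H3K4me1 peaks. Its intronic region chr17:67709817-67712517, 14.2 kb into the gene, was the tallest of the locus, with FLAG at 28 tags in NanogWT and 45 in NanogBiD, BRG1 at 12 and 29 tags and H3K27ac at 13 and 22. A second intronic region, chr17:67731641-67732715, had FLAG at 18 and 23 tags and gained BRG1 (15 tags) and H3K27ac (12 tags) as peaks of NanogBiD only. Both Lama1 regions were singled out after their values were seen, and the Lama1 promoter had FLAG summits of 18 and 15 tags.

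Lama5, a chain of epithelial and vascular basement membranes and of the laminins on which pluripotent cells grow, had 1 and 3 FLAG peaks, 2 and 3 BRG1 peaks, 2 and 3 H3K27ac peaks and 5 H3K4me1 peaks in each arm. At its promoter FLAG was found in NanogBiD only, at 9 tags, over H3K27ac of 13 and 23 tags and H3K4me1 of 25 and 30 tags. Lama3, the chain of the epidermal laminin, was the laminin with the lowest summed difference, with 10 and 8 FLAG peaks, 5 and 6 BRG1 peaks, 5 H3K27ac peaks in each arm and 14 and 5 H3K4me1 peaks. At 1 of its start sites FLAG and BRG1, at 8 tags each, were found in NanogWT only, and at another FLAG was 18 tags in NanogWT and 11 in NanogBiD (log2 difference -0.71), with BRG1 of 16 and 8 tags and H3K27ac of 16 tags in NanogWT only. An intronic region of Lama3, picked after its values were seen, went the other way, with 22 tags of FLAG and 12 of BRG1 in NanogBiD only.

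Lama4, a chain of vessel and mesenchymal laminins, held regions of both kinds, which is why it appears in both of the laminin windows printed for 1 arm only. At chr10:38998659-39000138, 34.1 kb into the gene, FLAG was 24 tags and BRG1 14 tags in NanogBiD only, with neither mark in either arm. At chr10:39049039-39050639, 84.0 kb into the gene, FLAG was 15 tags, BRG1 14, H3K27ac 10 and H3K4me1 14, all in NanogWT only. Lama4 had 13 and 10 FLAG peaks and 6 and 10 BRG1 peaks, so that the 2 targets differed in opposite directions.

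Of the beta chains, all 3 had more FLAG peaks in NanogBiD, 15 against 20 in sum, where 50.2% of all genes with such a peak did, and BRG1 peaks numbered 14 and 16. Lamb1, a chain of most laminins of the embryo, had 4 and 6 FLAG peaks, 3 BRG1 peaks in each arm, and 5 and 3 peaks of each histone mark. No target had a peak listed within 2 kb of its start sites in either arm, and whether reads can be placed there was not tested, while the intronic region chr12:31292785-31294116 had 27 tags of FLAG and 13 of BRG1 in NanogBiD only, without either mark. Lamb3, the beta chain of the epidermal laminin, had 8 and 9 FLAG peaks, 6 and 8 BRG1 peaks, 5 and 6 H3K27ac peaks and 12 and 9 H3K4me1 peaks. The region chr1:193215571-193216798, 8.43 kb into the gene, had the largest FLAG increase of the laminins, from 12 tags in NanogWT to 28 in NanogBiD (log2 difference 1.22), beside BRG1 of 8 and 19 tags, H3K27ac of 17 tags in NanogBiD only and H3K4me1 of 11 and 18 tags. It is thus a region where all 4 targets were higher in NanogBiD.

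The gamma chains differed little in BRG1 and H3K27ac. Lamc1, the chain shared by most laminins, had 4 and 6 FLAG peaks, 7 and 6 BRG1 peaks, 4 H3K27ac peaks in each arm and 7 and 3 H3K4me1 peaks, and its promoter was marked in both, with FLAG summits of 33 and 38 tags, BRG1 summits of 37 and 31 and H3K27ac summits of 36 and 34. Its intronic region chr1:153292012-153292796 had 15 tags of FLAG and 14 of BRG1 in NanogBiD only. Lamc3 had 3 and 2 FLAG peaks, 1 and 2 BRG1 peaks, 2 H3K27ac peaks in each arm and 5 and 6 H3K4me1 peaks. Without Lama2 the BRG1 ratio of the laminins was 1.18 (0.753 to 1.86) and the FLAG ratio 1.12 (0.750 to 1.68), so the size of the laminin BRG1 difference rested largely on that gene.

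**Figure D3:**
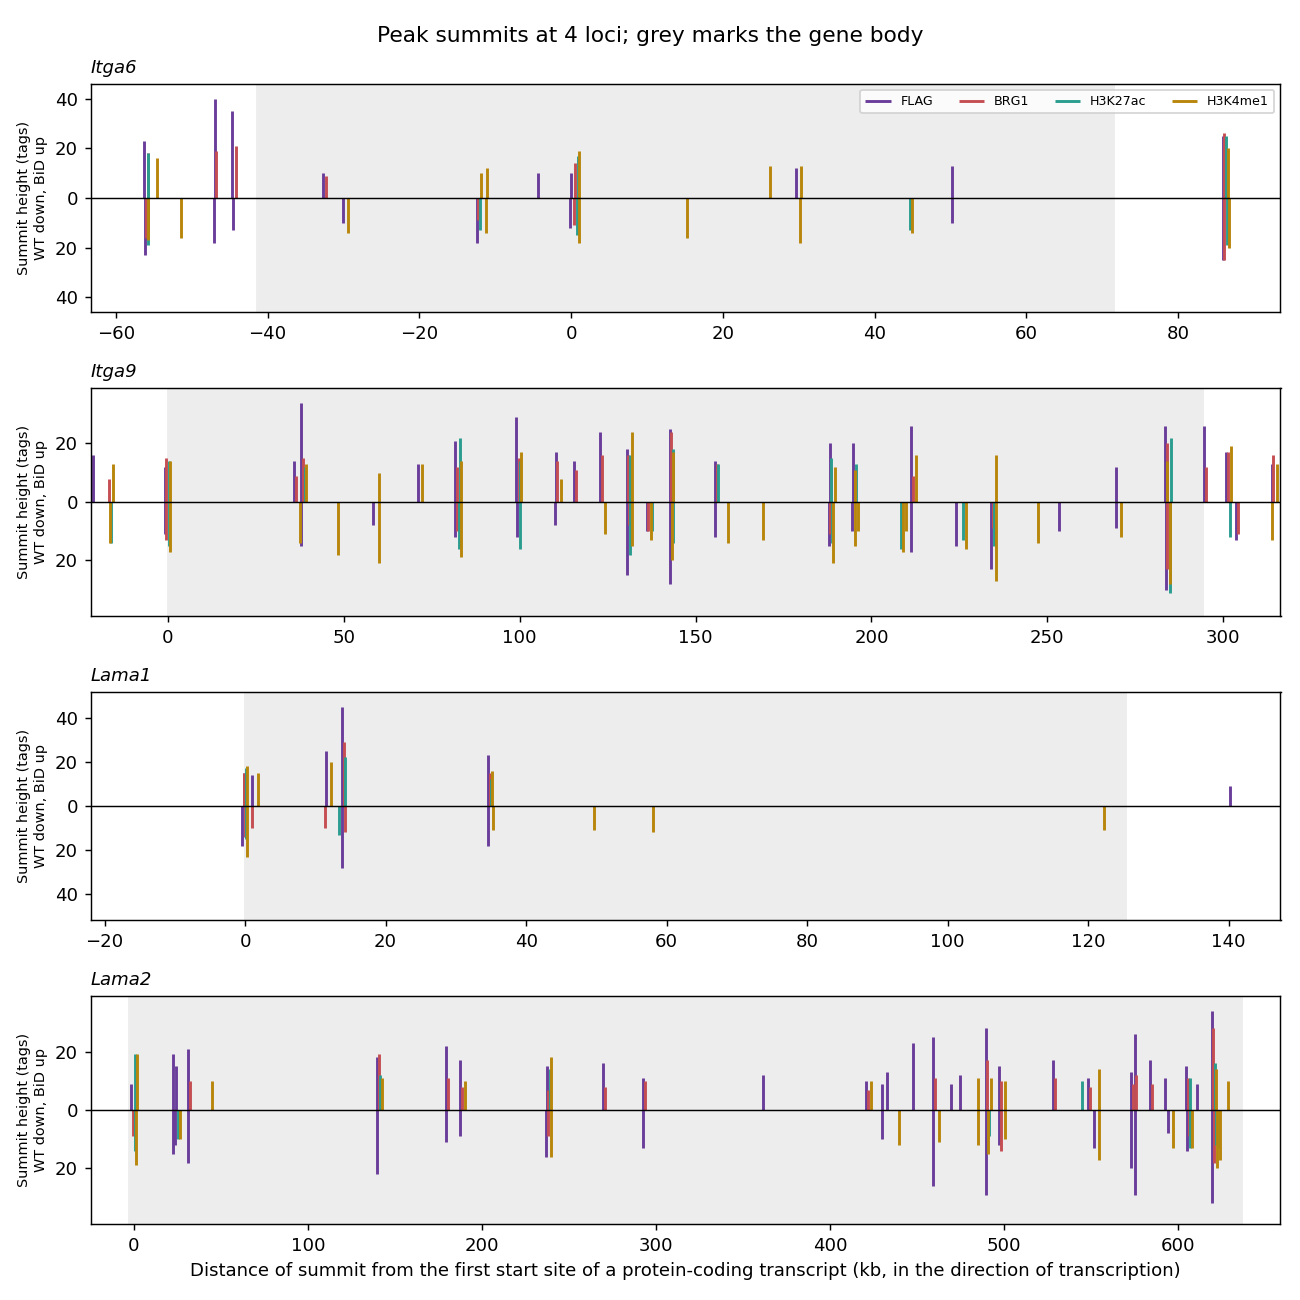
Summits of all peaks at Itga6, Itga9, Lama1 and Lama2, placed by their distance in kb from the first start site of a protein-coding transcript, with height in tags, NanogBiD upward and NanogWT downward, and coloured by target. The gene body is grey; at Lama2 BRG1 peaks number 6 below the line and 18 above, and at Itga6 FLAG summits of 35 and 40 tags stand upstream of the gene in NanogBiD.

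When peaks of both arms were merged into regions, the integrin loci held 163 FLAG regions. Of these, 92 had a peak in each arm. Another 26 belonged to NanogWT alone, against 15.8% of all FLAG regions, and 45, or 27.6% (21.3 to 34.9%), to NanogBiD alone, against 33.7% of all. Of 123 integrin BRG1 regions 57 were shared, 16 were in NanogWT only, against 9.91% of all, and 50, or 40.7% (32.4 to 49.5%), were in NanogBiD only, against 48.4%. H3K27ac regions found in 1 arm only divided evenly at integrins, 24 and 24 of 120, whereas over the genome 29.1% were in NanogBiD only and 14.6% in NanogWT only. Of 189 H3K4me1 regions 73 were limited to NanogWT and 25 to NanogBiD, against 34.8% and 17.3% of all.

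The laminin loci held 100 FLAG regions, 50 of them shared, with 17 of NanogWT alone, 17%, and 33 of NanogBiD alone, 33%, against 15.8% and 33.7% of all. They also held 73 BRG1 regions, with 34 in both arms, 10 of NanogWT alone, 13.7%, and 29 of NanogBiD alone, 39.7% (29.3 to 51.2%), against 9.91% and 48.4%. For H3K27ac, 12 of 57 regions were limited to NanogWT and 14 to NanogBiD, 21.1% and 24.6%, against 14.6% and 29.1%, and for H3K4me1 38 and 17 of 91, 41.8% and 18.7%, against 34.8% and 17.3%. Regions of 1 arm only had median FLAG heights of 13.0 tags for the NanogBiD-only and 10 for the NanogWT-only regions of the integrins, and 12 and 15 for those of the laminins.

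Where a region was shared, heights differed little. The median log2 difference of FLAG height, NanogBiD over NanogWT, was 0.17 (0.00 to 0.38, an order-statistic interval over regions) at integrins and 0.10 (-0.07 to 0.31) at laminins, against 0.15 over the genome. For BRG1 it was 0.09 (-0.15 to 0.26) and 0.00 (-0.26 to 0.29), against 0.14. H3K27ac medians were 0.00 in both families (-0.08 to 0.15 and -0.14 to 0.18), against 0.08. H3K4me1 medians were -0.23 (-0.29 to -0.13) and -0.15 (-0.34 to 0.00), against -0.18. FLAG was at least 2-fold higher at 7 of the 92 shared integrin regions and 4 of the 50 shared laminin regions, against 7.73% of all, and at least 2-fold lower at 2 and 0, against 1.92%. Apart from the Itgb6 region the other integrin region with such a decrease was in an intron of Itga8, where FLAG was 18 and 9 tags.

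**Figure D4:**
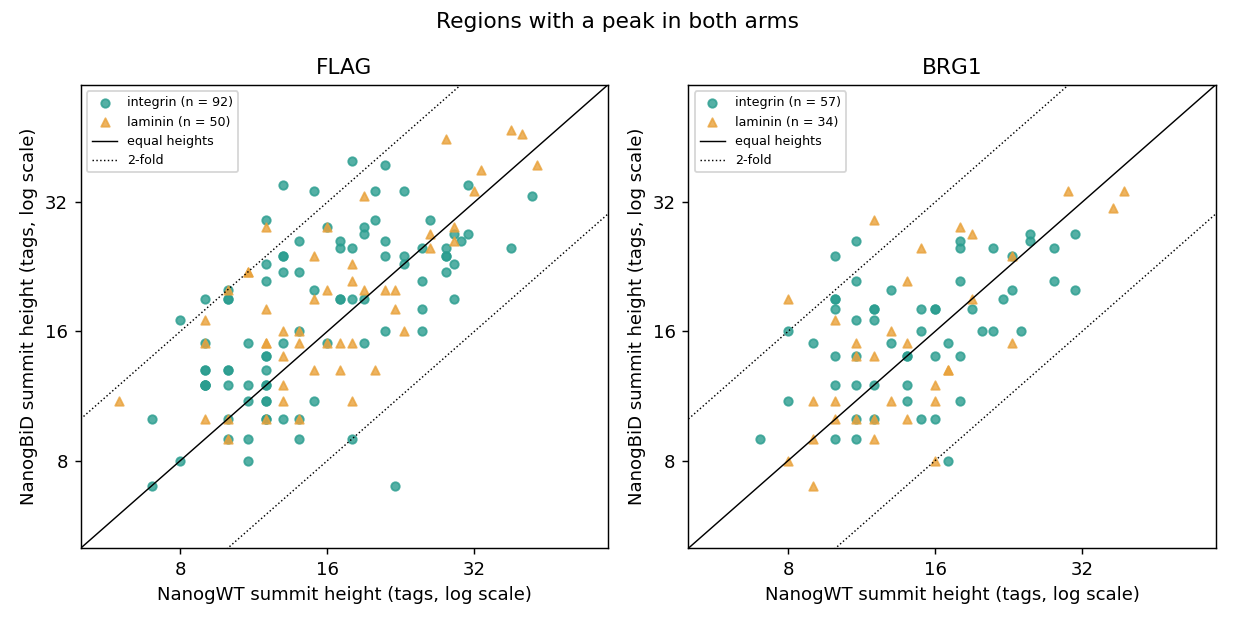
Summit height in tags where both arms had a peak, NanogWT on the horizontal and NanogBiD on the vertical axis (both log scales), for FLAG and BRG1, with 1 point for each region of the integrin and laminin loci. The line marks equal heights and the dotted lines 2-fold differences; 7 integrin and 4 laminin FLAG regions lie on or above the upper dotted line.

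To ask how the 2 factors went together, the peaks of both targets and arms were merged and each region was classed by the lists it held. The integrins had 45 regions with FLAG of NanogBiD alone, and BRG1 was likewise limited to NanogBiD at 16 of them, which is 35.6% (Wilson 95% interval 23.2 to 50.2%), and at 12 of the 33 laminin regions, 36.4% (22.2 to 53.4%), against 35.1% of all such regions. The shares moved with the lists: with scores of at least 100 they were 23.3% and 10%, against 30.8%, with heights of at least 15 tags 33.3% and 13.0%, against 21.9%, and in the top 20000 peaks 58.3% and 50%, against 42.7%. Where FLAG was present in both arms, BRG1 was found in NanogBiD only at 24 of 92 integrin regions and 13 of 50 laminin regions, 26.1% and 26.0%, against 32.0%, and in NanogWT only at 2 of each, against 3.21%. Where FLAG was limited to NanogWT, so was BRG1 at 6 of the 26 integrin regions, 23.1% (11 to 42.1%), and at 2 of the 17 laminin regions, 11.8% (3.29 to 34.3%), against 10.4%. Over whole lists the intervals of these shares held the share of the genome, apart from the integrin NanogWT class, and the laminin interval with scores of at least 100 (2.79 to 30.1%) did not hold it. Other laminin classes lay further from the genome. Among their 33 regions with FLAG of NanogBiD alone, BRG1 was present in both arms at 5 and in NanogWT alone at another 5, each 15.2% (6.65 to 30.9%), against 4.31% and 1.97% of all such regions. Among their 17 regions with FLAG of NanogWT alone, BRG1 was in both arms at 3, 17.6% (6.19 to 41.0%), against 5.5%. The 5 laminin regions with FLAG of NanogBiD alone and BRG1 of NanogWT alone, described after their values were seen, lay at Lama1, Lama2, Lamb2, Lamb3 and Lamc1, and their BRG1 summits were 8 to 10 tags high. The Lama1 region, chr17:67708362-67709656, had FLAG of 25 and H3K4me1 of 20 tags in NanogBiD only and BRG1 of 10 tags in NanogWT only. It lay beside the tallest Lama1 region described above, and the H3K27ac peak of NanogBiD that reached into it was the 22-tag peak whose summit is in that taller region. The Lama2 region was its promoter, with FLAG of 9 tags in NanogBiD, BRG1 of 9 tags in NanogWT, H3K27ac of 14 and 19 tags and H3K4me1 of 19 tags in each arm. The reverse, FLAG of NanogWT alone (20 tags) and BRG1 of NanogBiD alone (10 tags), was found at 1 laminin region, upstream of Lamb3 at chr1:193188742-193189935.

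**Figure D5:**
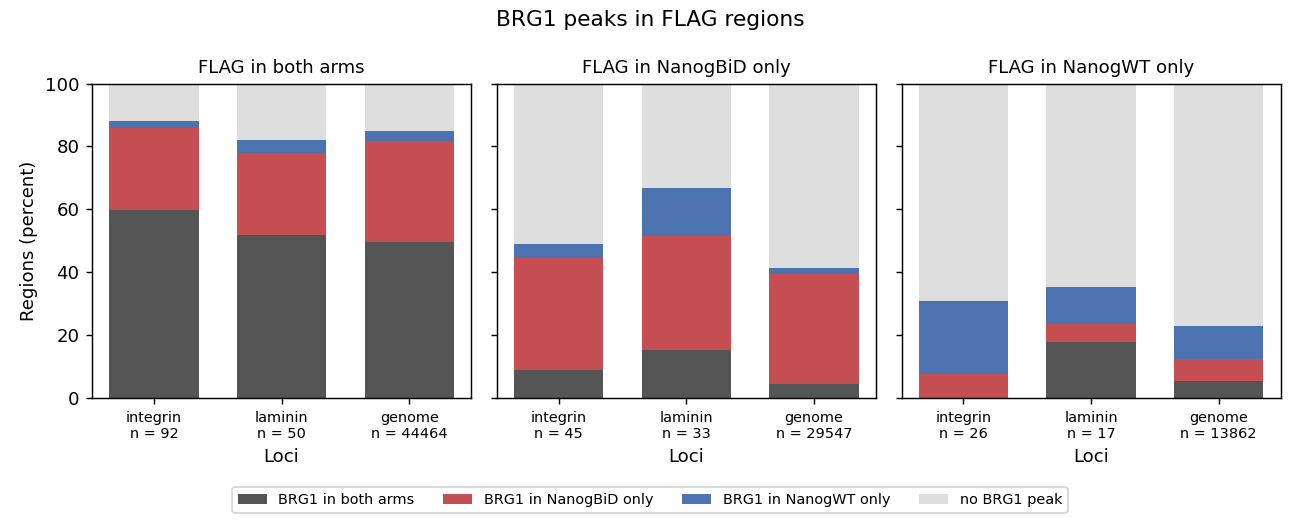
Percent of FLAG regions with a BRG1 peak in both arms, in NanogBiD only, in NanogWT only or in neither, for FLAG regions of 3 kinds at integrin loci, laminin loci and over the genome, with the number of regions below each bar. Where FLAG was in NanogBiD only, BRG1 in NanogBiD only makes up 35.6%, 36.4% and 35.1%.

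New NANOG and BRG1 regions were then set beside new H3K27ac peaks. Among the 28 regions of both families where the 2 factors were limited to NanogBiD, H3K27ac was found in NanogBiD only at 3, 10.7% (3.71 to 27.2%), an interval that held the 22.8% of the 10376 such regions of the genome. All 3 were among the 16 integrin regions, 18.8% (6.59 to 43.0%), and 0 were among the 12 laminin regions (0 to 24.2%), 5 of which were in Lama2. Where FLAG was in both arms and BRG1 in NanogBiD only, H3K27ac was new in NanogBiD at 10 of 37 regions, 27% (15.4 to 43.0%), against 31.8%. Of the 8 regions with both factors in NanogWT only, H3K27ac was found in NanogWT only at 4, against 32.6% of all such regions.

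At promoters, 2 kb either side of the start sites of protein-coding transcripts, FLAG peaks were found for 13 of 25 integrins in NanogWT and 15 in NanogBiD, against 53.5% and 54.9% of all protein-coding genes. BRG1 peaks were found for 12 and 15, against 52.8% and 53.9%, H3K27ac peaks for 14 and 18, against 56.0% and 58.8%, and H3K4me1 peaks for 20 and 16, against 61.3% and 60.3%. H3K27ac was in NanogBiD only at the promoters of Itga7, Itgb2, Itgb3 and Itgb7, 4 of 25, against 4.25% of all protein-coding genes, and in NanogWT only at none, against 1.45%. H3K4me1 was in NanogWT only at Itga2b, Itga5, Itgb2 and Itgb7, against 5.55%, and in NanogBiD only at none, against 4.59%. FLAG was in NanogBiD only at Itga3, Itgb2, Itgb3 and Itgb7, against 5.15%, and in NanogWT only at Itga5 and Itga11, against 3.8%. BRG1 was in NanogBiD only at Itga3, Itga4, Itgb6 and Itgb7, against 4.79%, and in NanogWT only at Itga5, against 3.68%. With scores of at least 100 the integrin promoters with a peak were fewer. They numbered 10 in each arm for FLAG, 8 and 9 for BRG1, 12 and 15 for H3K27ac and 13 and 11 for H3K4me1.

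Itgb7, the beta chain of the gut-homing integrins of lymphocytes, was thus the integrin whose promoter peak differed for all 4 targets, and like Itgb2 it belongs to the leukocyte group. It was singled out after these lists were seen. The only Itgb7 region with BRG1 in NanogBiD alone had a BRG1 summit of 11 tags. Of the 4 merged FLAG or BRG1 regions in the Itgb7 locus, 2 lay at start sites of other genes. Among the 10 laminins FLAG promoter peaks numbered 5 and 7, those in NanogBiD only being Lama2 and Lama5, but with scores of at least 100 they numbered 5 and 3, and with promoters of 1 kb 5 in each arm. BRG1 numbered 7 and 6, with Lama2 in NanogWT only, but 3 in each arm with scores of at least 100. H3K27ac and H3K4me1 numbered 7 and 8 in either arm. The promoters of Itga10, Itgae, Itgal, Itgam, Itgax, Lamb1 and Lamb3 had no peak of any target in either arm.

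By position, which the windows set in part since most of their length is gene body, the regions lay as follows. Of 175 FLAG or BRG1 regions at integrins 86 were intronic, 21 at promoters, 5 exonic, 34 upstream and 29 downstream, and of 104 at laminins 78 were intronic and 9 at promoters. All 12 laminin regions where both factors were limited to NanogBiD were intronic, spread over 7 genes, and of the 16 at integrins 9 were intronic and 2 were at promoters, over 10 genes. Itga9 alone held 6 of those 16, and Lama2 held 5 of the 12. These positions are counts only, since the share at other loci of such length was not computed. In 101 bp centred on each of the 263 FLAG summits of the members, AP-1 matched at 5.70% (3.49 to 9.20%), TEAD at 8.75% (5.90 to 12.8%), the octamer at 2.28% (1.05 to 4.89%), SOX at 6.84% (4.37 to 10.6%) and RUNX at 4.56% (2.63 to 7.80%). Over all 88183 FLAG summits the shares were 7.17%, 7.02%, 2.31%, 8.70% and 3.42%, each within the members' interval. In windows of the same size 1 kb away the members' shares were 1.52%, 7.22%, 0.380%, 7.22% and 1.90%, so that TEAD and SOX matches were about as frequent off the summits as on them. SOX matched at 3 of the 78 member summits found in NanogBiD only, 3.85% (1.32 to 10.7%), against 10.1% of all such summits, and RUNX at 6 of the 43 found in NanogWT only, 14.0% (6.56 to 27.3%), against 3.44%, both picked after all classes and motifs were seen.

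Genes that work with these receptors and ligands were compared in the same way. Over 22 partners, made up of adaptors and kinases of the adhesion site, basement membrane ligands and other laminin receptors, FLAG peaks went from 106 to 142 between NanogWT and NanogBiD, which gives 1.34 (1.03 to 1.74), with 17 genes having more and 4 fewer, against 50.2% and 17.6% of all protein-coding genes with a peak. BRG1 peaks numbered 93 and 116, a ratio of 1.25 (0.941 to 1.66), beside the FLAG ratio with an interval that overlaps it. Over the loci of all protein-coding genes the ratios were 1.24 for FLAG and 1.56 for BRG1, inside these intervals. BRG1 peaks were more at 11 genes and fewer at 6, against 53.2% and 12.7%. H3K27ac peaks numbered 105 and 108, with 8 genes having more and 2 fewer, against 37.4% and 17.4%, and H3K4me1 peaks 159 and 125, with 4 and 14, against 19.7% and 51.6%. The shares over all genes were again not matched for length, and the partners ran from 3.2 kb (Vtn) to 342.6 kb (Tln2). The largest summed differences were at Tln2, a talin that activates integrins (FLAG 11 and 16, BRG1 6 and 12), Parva, an actin-binding partner of integrin-linked kinase (FLAG 8 and 14, BRG1 7 and 11), and Nid1, a nidogen that binds laminin, where BRG1 peaks numbered 0 in NanogWT and 6 in NanogBiD and FLAG peaks 4 and 6. The lowest were at Tns1, a tensin (H3K27ac 16 and 10, BRG1 10 and 7), Dag1, the laminin receptor dystroglycan (BRG1 5 and 3), and Fermt1, a kindlin (FLAG and BRG1 1 and 0).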

How the data were processed

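CUT&Tag was performed in 8 libraries, 4 targets in each of 2 arms, with 100000 cells per library per the labels, whereas the study's methods give a smaller number. The antibody label reads H3K4me where the titles read H3K4me1. Per the submitters' processing notes and the methods, the authors used Trim Galore (0.6.4), Bowtie2 (2.4.5) on mm10 and SAMtools (1.16.1), merged replicates and called peaks with MACS (1.4.2), reading each tag position once; no control library and no number of merged replicates is given in the sources used here. The deposited peak lists give the peak caller's score, at least 50.0 in every list. The deposited summit lists give a signal, the tag pileup at the summit, not scaled to depth by the authors.

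Peaks and summits were joined by name in Python (3.11.15) with pandas (2.3.3), and peaks were merged where they overlapped by at least 1 bp or touched. A peak belonged to a locus when it overlapped it. Ratios carry exact binomial, shares Wilson and medians order-statistic intervals, all at 95%. Counting and classing were tested on simulated data. Members, lists and rules were chosen with earlier results of these data known. Genes were described one by one when they had the 4 largest or 3 smallest summed differences of FLAG, BRG1 and H3K27ac peaks in their family (ties by symbol), or for their roles (Itgb1, Itga5, Itgav, Itga6, Itga3, Itga11, Lama1, Lama5, Lamb1, Lamc1 and the leukocyte chains); partners by the 3 largest and 3 smallest. Regions were named by the 3 highest in each class of 1 arm only and the 2 largest height changes each way. Sequences came from the NCBI RefSeq copy of GRCm38, whose chromosome lengths hold every peak, and none was printed for Lama3. A mark was counted at a region when its peak overlapped the region, even with the summit outside. Peak ratios, height changes, promoter counts and the share of FLAG regions of NanogBiD alone that had BRG1 of NanogBiD alone were recomputed with settings chosen for each from these: scores of 100 or more, the 20000 top-scoring peaks, a height of at least 15 tags, other flanks (none and 50 kb), summits in place of overlaps, promoters of 1 kb, scores in place of heights, merging over 500 bp, no peaks at other genes' start sites, and leaving out the member with the most peaks. Gene-by-gene, partner, mark and motif counts were computed once.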

Additional observations from a re-analysis of the deposited data

How the results depend on the processing

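Over the peak ratios, height changes, promoter counts and 1 class share recomputed, 165 values stayed within their limits, 11 moved beyond them, and 2 ratios whose interval had excluded 1 changed direction. With the 20000 highest-scoring peaks, which makes the lists equal in size by construction, the integrin ratios for BRG1 and H3K4me1 turned to 0.938 and 1.16, the laminin ratios, whose intervals had included 1, fell to its other side at 0.95 for FLAG, 0.640 for BRG1 and 0.842 for H3K27ac, and BRG1 of NanogBiD alone was present at 58.3% of 12 integrin FLAG regions of that arm alone (32.0 to 80.7%), against 42.7% over the genome. With heights of at least 15 tags the integrin ratios were 1.57 for FLAG and 0.538 for H3K4me1, and that share was 13.0% at laminins against 21.9% over the genome. With scores of at least 100 it was 10% at laminins against 30.8%. At that score promoter peaks numbered 9 for integrin BRG1 in NanogBiD, 13 for integrin H3K4me1 in NanogWT, 3 for laminin FLAG in NanogBiD, below the 5 of NanogWT, and 3 for laminin BRG1 in each arm. Apart from the equal list size, the cause was not tested. The integrin H3K27ac ratio, 0.990 as reported, was 1.07 without flanks and 1.02 without Itga9. The median height changes stayed within their limits in all 64 alternatives run, although that of laminin FLAG was -0.04 with scores in place of heights. Depth is unknown, many summits lie near the lowest heights listed, and with 1 merged list per group the spread between cultures cannot be seen. No paired analysis was possible because the replicates of every target and arm were merged before peaks were called, and the lists carry no numbering.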
